A study of Homo sapiens with 9 samples.

Results

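The genes described here are 3 receptors of the EGF receptor family (EGFR, ERBB2 and ERBB3), 4 ligands (HBEGF, EREG, BTC and TGFA) and the receptor inhibitor ERRFI1. They were taken by symbol from a table of read counts for 60683 genes, and all 8 were among the 22672 genes with enough counts to test. The counts came from 9 cultures of Hep3B, a human liver cancer cell line, after 24 hours in 3 groups of 3 biological replicates. The groups were cells given vehicle (DMSO) at 20% O2, cells given vehicle at 1% O2 and cells given the HIF inhibitor 32-134D at 1% O2. HIFs are the transcription factors through which cells respond to hypoxia. All 9 cultures came from a single cell line, the labels state no dose of 32-134D, and cells given the compound at 20% O2 were not analysed here.

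EGF receptor family members sit in the plasma membrane as receptor tyrosine kinases. Ligands are made as membrane-anchored precursors, cut free by proteases, and bring receptors together in pairs that phosphorylate each other and feed the RAS-ERK and PI3K pathways. ERBB2 binds no known ligand and acts as a partner, ERBB3 has little kinase activity of its own and recruits PI3K well when phosphorylated, and ERRFI1 (also called MIG6) binds the kinase domain and blocks it. In hepatocytes the pathway is known for its part in liver regeneration.

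Total counts ran from 6013980 to 40549699 per library, and the common biological coefficient of variation was 10.5%. Levels are given in CPM, counts scaled to a common library size with the TMM method. A gene was called in a comparison with an edgeR quasi-likelihood FDR (Benjamini-Hochberg) below 0.05 and a fold change above 1.5, and p-values measure the spread between these cultures only. Of 6 HIF target genes used as a check, 6 were called higher in hypoxia and 6 were called lower with 32-134D. All 9 hepatocyte markers were detected in each group, and 5 of 10 markers of other cell types did not exceed 3 counts in any library. Replicate 3 of 32-134D stood apart from replicates 1 and 2 for several genes of this family, so values with and without it are given where they differ. In that library the 9 hepatocyte markers were at 0.206 (FGB) to 1.08 (HNF4A) times the mean of the other 2 libraries of its group. Across 11515 genes with a mean count of at least 100, the median of that ratio was 0.994, 3.14% of genes exceeded 1.5 and 5.31% were lower by more than that fold.

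HBEGF, ERRFI1 and EREG were the 3 members called higher in hypoxia, and the 250 bases before their start sites are shown because HIFs bind near the genes they activate. The sequences are those of RefSeq on GRCh38.p14, printed 5′ to 3′ on the strand of the gene. HBEGF is chr5:140346604-140346853 on the minus strand, ERRFI1 is chr1:8026310-8026559 on the minus strand and EREG is chr4:74364895-74365144 on the plus strand. Capitals mark the core of a HIF site, ACGTG or GCGTG on either strand.
HBEGF: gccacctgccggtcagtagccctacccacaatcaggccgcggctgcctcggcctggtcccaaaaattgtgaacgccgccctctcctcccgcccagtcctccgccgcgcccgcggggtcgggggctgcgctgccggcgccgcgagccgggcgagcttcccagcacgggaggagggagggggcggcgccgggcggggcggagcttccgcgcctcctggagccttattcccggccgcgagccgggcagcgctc
ERRFI1: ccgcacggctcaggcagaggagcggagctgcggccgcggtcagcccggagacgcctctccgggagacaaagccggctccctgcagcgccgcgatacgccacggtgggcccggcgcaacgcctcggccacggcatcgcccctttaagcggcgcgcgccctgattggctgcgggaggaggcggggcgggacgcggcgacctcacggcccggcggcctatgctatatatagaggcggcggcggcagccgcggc
EREG: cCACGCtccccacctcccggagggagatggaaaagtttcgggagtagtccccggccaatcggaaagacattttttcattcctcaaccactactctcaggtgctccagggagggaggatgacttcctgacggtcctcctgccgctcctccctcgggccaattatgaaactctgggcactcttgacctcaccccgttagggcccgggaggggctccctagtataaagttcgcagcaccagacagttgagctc
The only core among the 3 windows was in EREG, starting 249 bases before the start site. Promoters were found for 7 of the 8 members, in 9 windows, and ERBB3 had no entry. A core was present in 3 member genes, EREG, BTC and TGFA, in 3 of 9 windows, compared with 43.2% of 35116 windows over all genes. The GC content was 76.4% in the HBEGF window, 75.2% in that of ERRFI1 and 58.0% in that of EREG, against a median of 58.0% over all windows. A match describes these letters only, and its absence says nothing about HIF binding elsewhere.

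Compared with 20% O2, vehicle at 1% O2 gave 3 members called higher (HBEGF, ERRFI1 and EREG) and 1 called lower (ERBB3). Those 4 of 8 members compare with 39.7% of all genes tested (19.5% higher and 20.3% lower), or 48.2% of the genes with a mean count of at least 100, so the share of members called was near the background. With 32-134D at 1% O2, 1 member was called higher (ERBB3) and 2 were called lower (HBEGF and ERRFI1) relative to vehicle at 1% O2, against a background of 29.9% (16.2% higher and 13.7% lower, and 35.3% of the deeper genes). Relative to vehicle at 20% O2, 3 members were called higher with 32-134D, against a background of 3.52% (0.516% lower, and 5.41% of the deeper genes). By edgeR 0 members were called lower there, with 0 lower at an unadjusted p below 0.05 and 0 by DESeq2. The called members were HBEGF, EREG and ERRFI1, and without replicate 3 of 32-134D HBEGF alone was called. On FDR alone, 5, 5 and 3 members passed in these comparisons, beside 53.5%, 47.5% and 10.3% of all genes. The groups did not overlap for 6, 5 and 4 members, beside 60.5%, 56.1% and 29.8% of all genes. Each pair of comparisons shares the libraries of 1 group, so their values are not independent. The medians over the 8 members were 0.52, 0.07 and 0.56 on the log2 scale in the same order, beside 0.00, -0.01 and 0.00 for all genes tested. Without replicate 3 of 32-134D the median relative to vehicle at 1% O2 was -0.19.

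**Figure D1:**
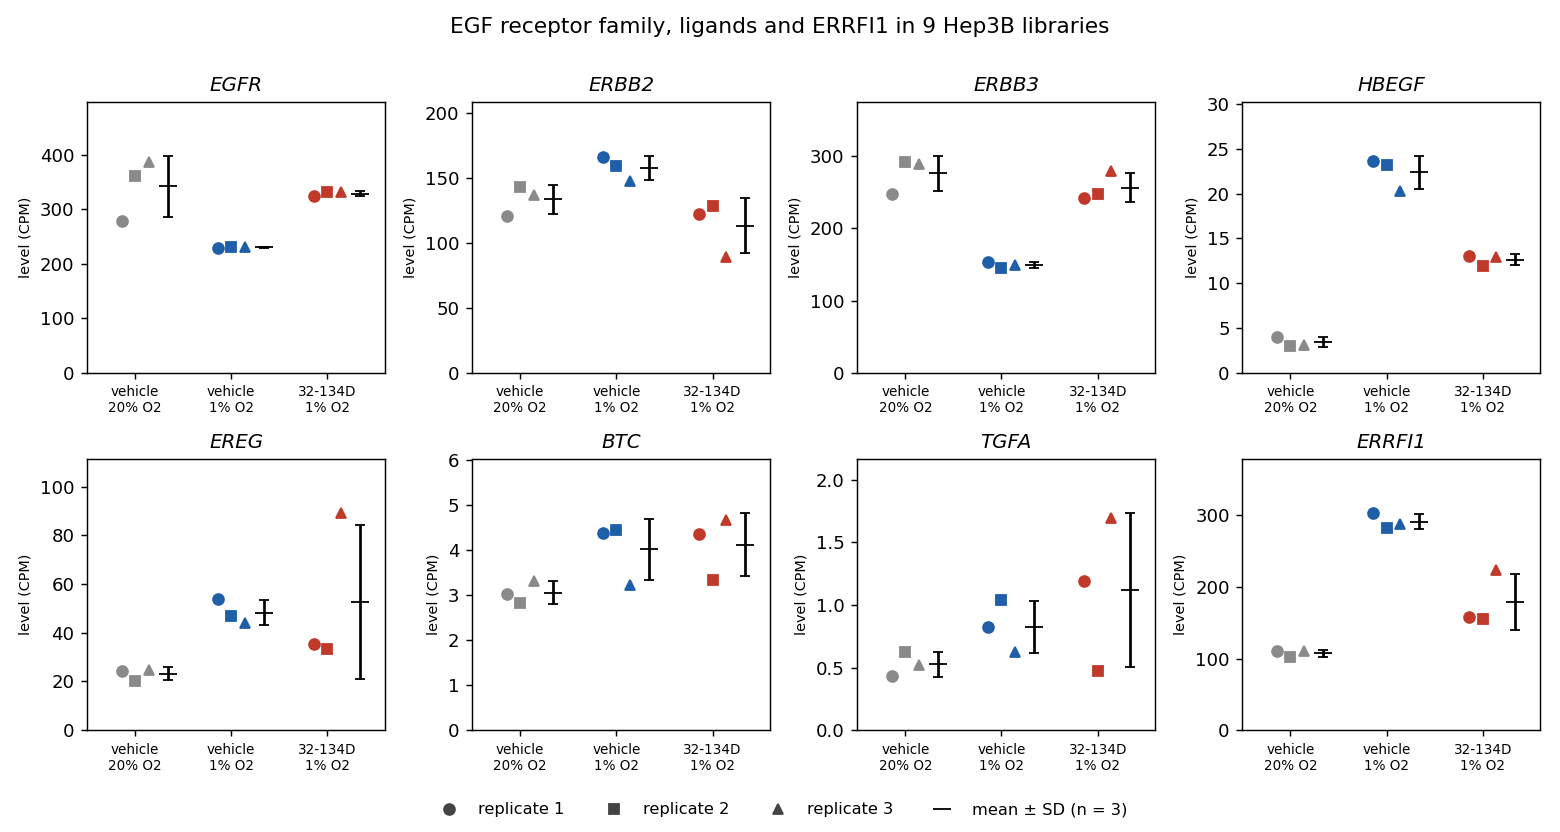
Level in CPM (counts scaled to a common library size, linear axes from 0) of the 8 members in each of the 9 libraries by group, with the mean and SD of 3 replicates. HBEGF and ERRFI1 are highest in all 3 vehicle libraries at 1% O2, EGFR and ERBB3 are lowest there, and the triangle of 32-134D stands apart for EREG at 89.0 CPM.

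**Figure D2:**
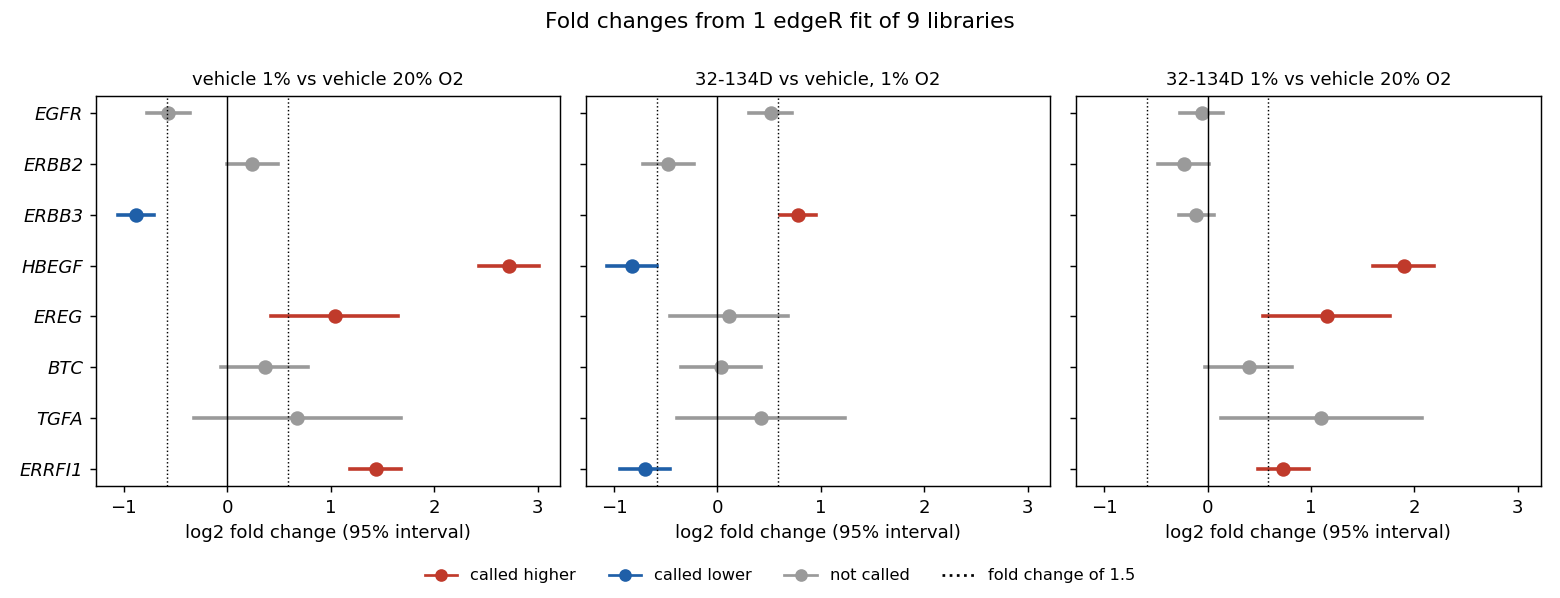
Log2 fold changes of the 8 members with 95% intervals in the 3 comparisons from 1 edgeR fit of 9 libraries, with dotted lines at a fold change of 1.5. HBEGF is farthest from 0 in hypoxia at 2.72, and the 3 receptors lie near 0 in the comparison of 32-134D with vehicle at 20% O2.

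Among the 4 receptors of the family, ERBB3 and ERBB4 were called lower in hypoxia and higher with 32-134D, while EGFR and ERBB2 passed neither comparison. These 2 of 4 in each comparison stand beside 39.7% of all genes called in hypoxia and 29.9% with 32-134D. Between 32-134D and vehicle at 20% O2, edgeR called 0 of the 4, beside 3.52% of all genes. There 0 had an unadjusted p below 0.05, and DESeq2 called 0. ERBB3 (ENSG00000065361, chromosome 12, 56076799 to 56103505 on GRCh38), the receptor that couples to PI3K, was the one receptor among the members to pass both thresholds. ERBB3 was at 249, 292 and 289 CPM in replicates 1, 2 and 3 of vehicle at 20% O2. It was at 154, 145 and 149 CPM in vehicle at 1% O2. With 32-134D it was at 243, 248 and 279.7 CPM. Every library in vehicle at 1% O2 was therefore below every library of the other groups, while the ranges of 32-134D and vehicle at 20% O2 overlapped. ERBB3 fell by 0.89 ± 0.08 (SE) on the log2 scale in hypoxia (edgeR FDR = 2.94e-07) and rose by 0.78 ± 0.08 with 32-134D (edgeR FDR = 1.89e-06). Between 32-134D and vehicle at 20% O2 the ERBB3 difference was -0.11, with a 95% interval from -0.28 to 0.07 (edgeR FDR = 0.459).

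EGFR (ENSG00000146648, chromosome 7, 55019021 to 55211628), the receptor for all 4 ligands among the members, had a similar order of groups with a smaller difference. EGFR was at 279, 361 and 387 CPM in vehicle at 20% O2. It was at 229.7, 230.9 and 230.5 CPM in vehicle at 1% O2, an SD of 0.634. The 32-134D libraries were at 324, 332 and 332 CPM. The vehicle libraries at 1% O2 were below all others, and the 32-134D libraries lay within the range at 20% O2. The EGFR log2 difference was -0.57 ± 0.10 (SE) in hypoxia, a 1.49-fold decrease with an edgeR FDR of 0.000136, just under the fold threshold. With 32-134D the difference was 0.52 ± 0.10, 1.43-fold, at an edgeR FDR of 0.000422, and EGFR was not called in either comparison. Leaving out replicate 1 of vehicle at 20% O2, the lowest of its group, moved the hypoxia difference to -0.75, past both thresholds, and DESeq2 called EGFR at -0.62. Between 32-134D and vehicle at 20% O2 the EGFR difference was -0.06, with a 95% interval from -0.26 to 0.15. The antisense gene EGFR-AS1 overlaps EGFR on the opposite strand and held 5.32% as many counts as EGFR over all libraries. EGFR-AS1 rose by 0.75 on the log2 scale in hypoxia (edgeR FDR = 0.00206), the reverse of the EGFR direction. Its difference with 32-134D was -0.14 relative to vehicle at 1% O2 (edgeR FDR = 0.514) and 0.61 relative to vehicle at 20% O2 (edgeR FDR = 0.0410). No strand setting for the counting was given in the sources used here, so reads of the pair may not be fully separated.

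ERBB2 (ENSG00000141736, chromosome 17, 39687914 to 39730426), the receptor without a ligand of its own, had the opposite order of groups. ERBB2 was at 121, 143 and 137 CPM in vehicle at 20% O2. It was at 166, 159 and 148 CPM in vehicle at 1% O2. Cells given 32-134D were at 123, 128 and 89.0 CPM. The vehicle libraries at 1% O2 were above all others, and the third 32-134D library was below all others. The ERBB2 log2 difference in hypoxia was 0.24, with a 95% interval from 0.00 to 0.49 (edgeR FDR = 0.0908), and it was 0.03 when libraries were scaled to total counts. Relative to vehicle at 1% O2, 32-134D gave a difference of -0.48 ± 0.11 (SE), 1.39-fold lower at an edgeR FDR of 0.00313 and below the fold threshold. Without replicate 3 of 32-134D this difference was -0.33. Against vehicle at 20% O2 the difference with 32-134D was -0.23, with a 95% interval from -0.48 to 0.02. MIEN1 and PGAP3 overlap the ERBB2 locus on the opposite strand, with 22.4% and 19.7% as many counts as ERBB2. PGAP3 fell by 1.22 on the log2 scale in hypoxia and rose by 0.82 with 32-134D, the reverse of the ERBB2 direction.

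ERBB4, the remaining receptor of the family and a receptor for neuregulins, is not one of the 8 members but completes the receptor list. ERBB4 was at 3.73, 2.83 and 5.35 CPM in vehicle at 20% O2. It was at 0.318, 0.424 and 0.484 CPM in vehicle at 1% O2, from 12, 9 and 14 counts. In cells given 32-134D it was at 3.03, 3.80 and 1.60 CPM. ERBB4 was thus low in every group and lowest in vehicle at 1% O2, with no overlap between vehicle at 1% O2 and the other groups. ERBB4 fell by 3.38 on the log2 scale in hypoxia (edgeR FDR = 1.48e-06) and rose by 2.82 with 32-134D (edgeR FDR = 1.38e-05).

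Of the ligands, HBEGF (ENSG00000113070, chromosome 5, 140332843 to 140346631), a heparin-binding ligand of EGFR and ERBB4, differed most between groups. HBEGF was at 4.02, 2.98 and 3.13 CPM in vehicle at 20% O2, from 56, 19 and 103 counts. It was at 23.6, 23.2 and 20.3 CPM in vehicle at 1% O2, from 892, 493 and 587 counts. Levels with 32-134D were 13.05, 11.9 and 12.9 CPM, from 460, 353 and 283 counts. The 3 groups did not overlap, and the 32-134D libraries lay between the other groups. HBEGF rose by 2.72 ± 0.14 (SE) on the log2 scale in hypoxia, a 6.60-fold increase (edgeR FDR = 6.71e-10). It fell by 0.83 ± 0.11 on the log2 scale with 32-134D, a 1.77-fold decrease (edgeR FDR = 2.45e-05). In cells given 32-134D it stayed above vehicle at 20% O2 by 1.90 ± 0.14 on the log2 scale, 3.72-fold (edgeR FDR = 7.00e-07). Replicate 3 of 32-134D was at 1.04 times the mean of the other 2 for HBEGF, and without it the last 2 differences were -0.84 and 1.89.

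EREG (ENSG00000124882, chromosome 4, 74365143 to 74388751) encodes epiregulin, a ligand of EGFR and ERBB4. EREG was at 24.5, 20.3 and 24.9 CPM in vehicle at 20% O2. It was at 54.0, 46.7 and 44.1 CPM in vehicle at 1% O2. The libraries of 32-134D were at 35.4, 33.5 and 89.0 CPM. The first 2 libraries of 32-134D were below every vehicle library at 1% O2, and the third was above every other library. EREG rose by 1.04 ± 0.29 (SE) on the log2 scale in hypoxia, 2.05-fold (edgeR FDR = 0.00640). With 32-134D the EREG difference was 0.11, with a 95% interval from -0.46 to 0.69 (edgeR FDR = 0.761). Without replicate 3 it was -0.49, with an edgeR FDR of 4.71e-05 and below the fold threshold. That fit kept only replicates 1 and 2 of 32-134D, so its FDR leaves out the spread that replicate 3 adds. Relative to vehicle at 20% O2, EREG was called higher with 32-134D by 1.15 ± 0.29 on the log2 scale (edgeR FDR = 0.0191), and without replicate 3 the difference was 0.54, below the fold threshold. That call was also lost without any single library of vehicle at 20% O2, at an edgeR FDR of 0.0600 to 0.0930. The direction with the compound at 1% O2 therefore rested on a single library.

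BTC (ENSG00000174808, chromosome 4, 74744759 to 74794686) encodes betacellulin, also a ligand of EGFR and ERBB4. BTC was at 3.01, 2.83 and 3.32 CPM in vehicle at 20% O2, from 42, 18 and 109 counts. It was at 4.37, 4.43 and 3.21 CPM in vehicle at 1% O2. In replicates 1, 2 and 3 of 32-134D it was at 4.34, 3.33 and 4.66 CPM. The vehicle groups overlapped, as did the groups at 1% O2. The BTC log2 difference was 0.36 in hypoxia, with a 95% interval from -0.06 to 0.78 (edgeR FDR = 0.137). At 1% O2 the difference with 32-134D was 0.03, with an interval from -0.35 to 0.42, and relative to vehicle at 20% O2 it was 0.40, with an interval from -0.02 to 0.82.

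TGFA (ENSG00000163235, chromosome 2, 70447280 to 70554193) encodes TGF-α, an EGFR ligand, and had the fewest counts of the members. TGFA had 6, 4 and 17 counts in vehicle at 20% O2, or 0.430, 0.628 and 0.517 CPM. It had 31, 22 and 18 counts in vehicle at 1% O2, or 0.822, 1.04 and 0.622 CPM. With 32-134D it had 42, 14 and 37 counts, or 1.19, 0.471 and 1.69 CPM. The groups overlapped in every comparison, and the second 32-134D library was within the range at 20% O2. The TGFA log2 differences were 0.68 in hypoxia (95% interval from -0.32 to 1.68), 0.42 with 32-134D (interval from -0.39 to 1.23) and 1.10 relative to vehicle at 20% O2 (interval from 0.13 to 2.07). The edgeR FDR was 0.242, 0.392 and 0.148 in that order, and TGFA was not called. Relative to vehicle at 20% O2, TGFA was called with no filter on low counts (edgeR FDR = 0.0449) and without replicate 2 of 32-134D (edgeR FDR = 0.0244).

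AREG, the gene of the EGFR ligand amphiregulin, is no member but lies between EREG and BTC in a cluster with EPGN that spans 486214 bases of chromosome 4. AREG was at 29.6, 26.2 and 21.9 CPM in vehicle at 20% O2. It was at 72.5, 67.2 and 66.5 CPM in vehicle at 1% O2. AREG was at 77.7, 72.0 and 174 CPM in the 32-134D libraries. The third 32-134D library was again the highest, at 2.32 times the mean of the other 2, beside 2.59 for EREG and 1.22 for BTC. AREG rose 2.68-fold in hypoxia (edgeR FDR = 0.000295). With 32-134D it was called higher by a further 0.64 (edgeR FDR = 0.0405), and without replicate 3 the difference was 0.12 (edgeR FDR = 0.262). Relative to vehicle at 20% O2, AREG was called higher with 32-134D both with that library (2.07) and without it (1.55). EPGN, for epigen, had 0 to 4 counts per library. Of the 4 neighbours, EREG and AREG were called higher in hypoxia, while BTC and EPGN were not called.

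Of the remaining ligands, the neuregulins bind ERBB3 and ERBB4. NRG3 fell by 1.27 on the log2 scale in hypoxia (edgeR FDR = 0.00409) and rose by 1.13 with 32-134D (edgeR FDR = 0.00695), from 4 to 39 counts per library. NRG1 and NRG4 were not called in any of the 3 comparisons. EGF, with 4 counts in all, and NRG2, with 3, were too low to test.

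ERRFI1 (ENSG00000116285, chromosome 1, 8004404 to 8026308) is a feedback inhibitor of EGFR whose transcription is known to be induced by growth factors and stress. ERRFI1 was at 110.0, 102 and 111 CPM in vehicle at 20% O2. It was at 303, 282 and 287 CPM in vehicle at 1% O2. Cells given 32-134D were at 158, 155 and 224 CPM. The 3 groups did not overlap, and the third 32-134D library was the closest to vehicle at 1% O2. ERRFI1 rose by 1.43 ± 0.12 (SE) on the log2 scale in hypoxia, 2.70-fold (edgeR FDR = 8.49e-08), and fell by 0.70 ± 0.11 with 32-134D, a 1.63-fold decrease (edgeR FDR = 0.000121). It stayed above vehicle at 20% O2 by 0.73 ± 0.12 on the log2 scale (edgeR FDR = 0.000927). Without replicate 3 of 32-134D these last differences were -0.89 and 0.54, and the latter no longer passed the fold threshold. The difference with 32-134D was -0.52 under scaling to total counts and -0.56 without replicate 1 of 32-134D, below the fold threshold in both cases.

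**Figure D3:**
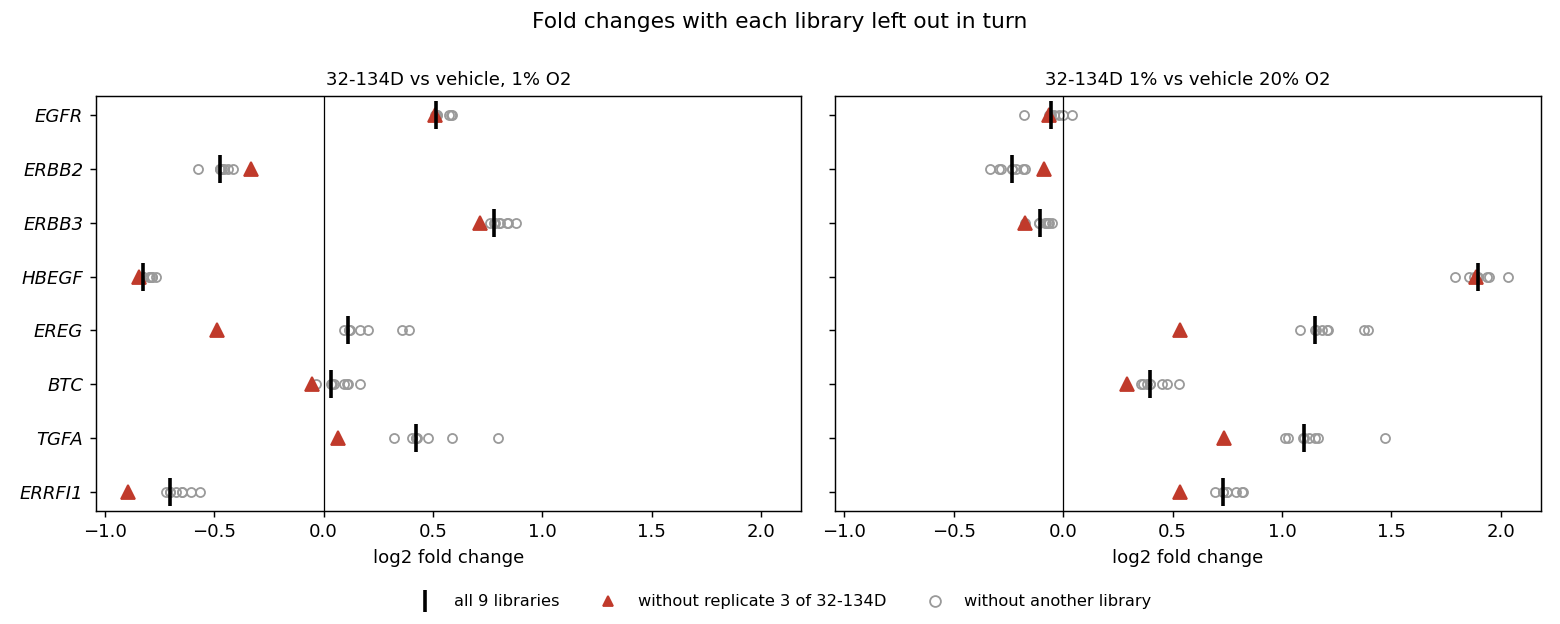
Log2 fold changes of the 8 members in the 2 comparisons of 32-134D with all 9 libraries (black bars), without replicate 3 of 32-134D (red triangles) and without each other library (open circles). EREG moves from 0.11 to -0.49 relative to vehicle at 1% O2 when replicate 3 is left out, while HBEGF moves from -0.83 to -0.84.

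Levels of different genes were compared per kilobase of exon (CPM per kb), with the union of annotated exons as the length. The order of the receptors depends on that choice. ERBB2 has 10321 bases of exon and 4930 in its longest transcript, against 12521 and 9821 for EGFR and 9039 and 5919 for ERBB3. Dividing by the longest transcript would place ERBB2 above EGFR and ERBB3 in vehicle at 1% O2. In vehicle at 20% O2, ERBB3 (30.6 ± 2.69, SD, n = 3), EGFR (27.3 ± 4.51) and ERRFI1 (25.7 ± 1.20) led in CPM per kb, and each overlapped the next in this order. ERBB2 followed at 12.9 CPM per kb, then EREG at 4.06. HBEGF at 1.12 and BTC at 1.08 CPM per kb overlapped, and TGFA was lowest at 0.106. In vehicle at 1% O2 the inhibitor ERRFI1 led at 69.5 ± 2.52 CPM per kb, above EGFR at 18.4 ± 0.0506. There ERBB3 at 16.5 and ERBB2 at 15.3 CPM per kb overlapped, as did EREG at 8.44 and HBEGF at 7.42, with BTC at 1.423 and TGFA at 0.167 below them. With 32-134D, ERRFI1 was at 42.7 ± 9.26 CPM per kb, ERBB3 at 28.4 ± 2.22 and EGFR at 26.3 ± 0.347. ERBB2 at 10.98 and EREG at 9.21 CPM per kb overlapped in that group, followed by HBEGF at 4.18, BTC at 1.46 and TGFA at 0.225. Among the members, the 3 receptors were thus measured above the 4 ligands in all 3 groups, apart from that overlap. This order did not extend to the ligand AREG, which is no member. AREG was at 15.7 CPM per kb in vehicle at 20% O2, below EGFR and ERBB3 and overlapping ERBB2. It was at 41.7 CPM per kb in vehicle at 1% O2 and 65.4 with 32-134D, above all 3 receptors in every library of both groups.

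The make-up of the receptor transcripts was compared as each gene's share of the summed CPM per kb of EGFR, ERBB2, ERBB3 and ERBB4. The size of each share holds for the union of exons as the length, and that of ERBB2 would be larger with longest transcripts. The share of ERBB2 was 18.2% ± 0.824 (SD, n = 3) in vehicle at 20% O2, 30.4% ± 1.20 in vehicle at 1% O2 and 16.7% ± 3.15 with 32-134D. The share of ERBB3 was 43.1% ± 1.39, 32.9% ± 0.681 and 43.1% ± 3.17 in the same order. Vehicle at 1% O2 did not overlap with either other group for these shares, and the exact two-sided permutation test gave p = 0.1 for each of those comparisons, the smallest that 3 against 3 allows. The share of EGFR moved less, at 38.3% ± 2.17, 36.6% ± 0.910 and 39.9% ± 0.140, and its vehicle groups overlapped (exact permutation p = 0.3). Between 32-134D and vehicle at 20% O2, exact permutation p was 0.6 for ERBB2, 1.0 for ERBB3 and 0.4 for EGFR. The summed receptor level was 71.2 ± 8.18 CPM per kb in vehicle at 20% O2, 50.2 ± 1.14 in vehicle at 1% O2 and 65.9 ± 0.949 with 32-134D.

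Among the ligands, AREG made up most of the summed CPM per kb of the 11 ligand genes. Its share was 70.1% ± 4.08 in vehicle at 20% O2, 70.3% ± 1.23 in vehicle at 1% O2 and 80.3% ± 2.08 with 32-134D. The share of HBEGF was 4.99% ± 0.392, 12.5% ± 0.596 and 5.92% ± 2.21, that of EREG was 18.3% ± 2.78, 14.2% ± 0.657 and 11.1% ± 0.999, and that of BTC was 4.89% ± 0.802, 2.39% ± 0.332 and 2.01% ± 0.651. HBEGF had a larger share in all 3 libraries of vehicle at 1% O2 than at 20% O2, while EREG had a smaller share although its level was higher (exact permutation p = 0.1 for each). The HBEGF share with 32-134D overlapped that at 20% O2 (exact permutation p = 0.4) although the HBEGF level did not. That overlap came from replicate 3 of 32-134D, at 3.36% beside 7.24% and 7.15% in replicates 1 and 2. Without it the difference in share from 20% O2 was 2.20 percentage points in place of 0.927. The groups then did not overlap, and exact permutation p = 0.2 was the smallest that 2 against 3 allows. The summed ligand level was 22.4 ± 2.45 CPM per kb in vehicle at 20% O2, 59.4 ± 3.52 in vehicle at 1% O2 and 80.8 ± 40.5 with 32-134D, where it ran from 55.1 to 128 with replicate 3 the highest.

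**Figure D4:**
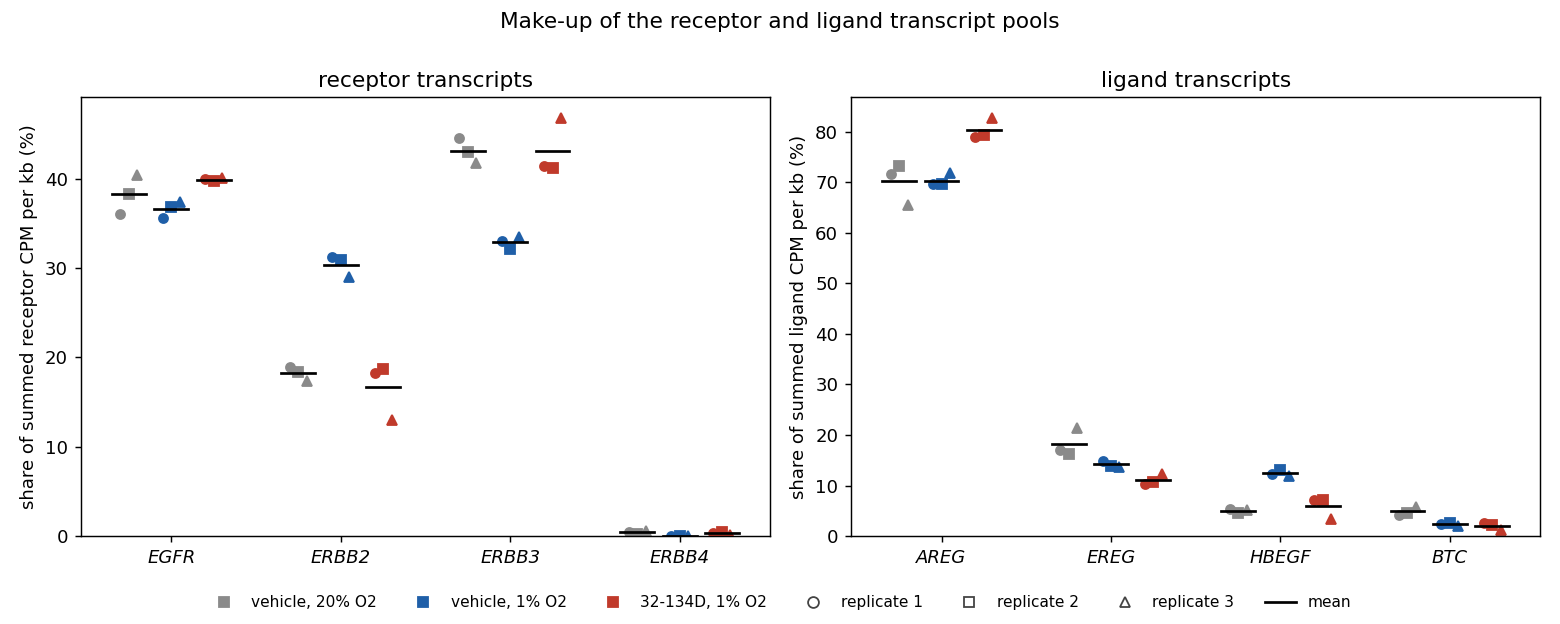
Share in percent of the summed receptor (left) and ligand (right) CPM per kb taken by each gene in each library, with the group mean as a bar. ERBB2 takes 30.4% of receptor transcripts on average in vehicle at 1% O2 against 18.2% at 20% O2, and AREG leads the ligands in all 3 groups.

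The members are part of a wider network, described with lists of 79 genes in all that were written from general knowledge, of which 76 were tested. In hypoxia 16 of them were called higher and 15 lower, a share of 40.8%, and the median log2 fold change was 0.13. That share compares with 39.7% of all genes and 48.2% of the genes with a mean count of at least 100. With 32-134D relative to vehicle at 1% O2, 19 were called higher and 11 lower, with a median of 0.09. This was 39.5%, beside 29.9% of all genes and 35.3% of the deeper genes. Relative to vehicle at 20% O2, 9 were called higher with 32-134D, with a median of 0.15. This was 11.8%, beside 3.52% of all genes and 5.41% of the deeper genes. By edgeR 0 were called lower there, beside 0.516% of all genes, with 4 lower at an unadjusted p below 0.05 and 0 by DESeq2. Of these 9, 5 were called without replicate 3 of 32-134D. The single lists below are set beside all genes, and the deeper genes were called more often in each comparison.

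Ligand shedding and trafficking held 7 tested genes, of which 1 was called higher and 3 lower in hypoxia, where 19.5% of all genes were called higher and 20.3% lower. CNIH4, of the cornichon family of cargo receptors, rose by 1.04 on the log2 scale (edgeR FDR = 8.84e-08). ADAM10, a protease that releases ligands including betacellulin, fell by 0.61, FRMD8, which stabilizes the complex of the sheddase ADAM17, fell by 0.65, and TIMP3, an inhibitor of such proteases, fell by 1.29. With 32-134D, TIMP3 rose by 1.11 and ADAM10 by 0.67, while CNIH4 fell by 0.79, and these 3 of 7 compare with 29.9% of all genes. By edgeR 0 of the 7 were called between 32-134D and vehicle at 20% O2, beside 3.52% of all genes. In that comparison 4 of them had an unadjusted p below 0.05, and DESeq2 called 0.

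Receptor inhibition and turnover held 18 tested genes, with 6 called higher and 2 lower in hypoxia, a share of 44.4% near the 39.7% of all genes. Beside ERRFI1, SOCS5, which promotes degradation of EGFR, rose by 1.49 on the log2 scale and LRIG2 rose by 1.05. CBLC, a ubiquitin ligase, fell by 1.09, and LRIG1, which lowers EGFR protein, fell by 0.77. With 32-134D, 2 were called higher and 4 lower, a share of 33.3% near the 29.9% of all genes. SOCS5 fell by 1.02 and LRIG2 by 0.72, whereas CBLC rose by 0.96 and LRIG1 by 0.60. ERRFI1 was the single gene of the list called between 32-134D and vehicle at 20% O2, where 3.52% of all genes were called. Without replicate 3, 0 of the list were called.

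Of 19 adaptor and RAS-ERK or PI3K relay genes, 4 were called higher and 1 lower in hypoxia, a share of 26.3% beside 39.7% of all genes, and with 32-134D 2 were called higher and 3 lower, 26.3% beside 29.9%. MAP2K1, the kinase MEK1 that phosphorylates ERK, was at 58.3 to 67.0 CPM in vehicle at 20% O2, 230 to 250 in vehicle at 1% O2 and 101 to 107 with 32-134D. It rose by 1.92 ± 0.08 (SE) on the log2 scale in hypoxia (edgeR FDR = 6.72e-11) and fell by 1.21 ± 0.07 with 32-134D (edgeR FDR = 1.22e-08). The docking protein GAB1 rose by 1.53 and fell by 0.93 in these comparisons, and HRAS rose by 0.87 and fell by 0.77. PIK3R1, a regulatory subunit of PI3K, fell 2.67-fold in hypoxia and rose 1.92-fold with 32-134D. It was at 61.4, 61.4 and 24.3 CPM in replicates 1, 2 and 3 of 32-134D, beside a mean of 25.6 CPM in vehicle at 1% O2. Replicate 3 thus showed no rise in PIK3R1, and without it the log2 difference was 1.26 in place of 0.94. SOS1, which loads RAS with GTP, was called higher with 32-134D by 1.07, but that difference was 0.04 without replicate 3. MAP2K1, GAB1 and SOS1 were called higher with 32-134D than in vehicle at 20% O2, and MAP2K1 alone remained called there without replicate 3, at 0.72.

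Of 19 tested genes that respond to ERK or feed back on it, 2 were called higher and 6 lower in hypoxia, a share of 42.1% beside 39.7% of all genes, with a median of -0.15 on the log2 scale. DUSP5 and DUSP4, phosphatases of ERK, rose by 2.13 and 1.60. The immediate early gene EGR1 fell by 1.92, CCND1, for cyclin D1, fell by 1.71 and IER3 fell by 1.37. With 32-134D, 9 were called higher and 2 lower, beside 16.2% and 13.7% of all genes, with a median of 0.54, and without replicate 3 the counts were 7 and 2 with a median of 0.26. EGR1 was at 27.5 to 29.9 CPM in vehicle at 20% O2 and at 6.60 to 8.99 in vehicle at 1% O2. With 32-134D it was at 21.6, 22.8 and 103 CPM in replicates 1, 2 and 3. EGR1 rose by 2.69 on the log2 scale with 32-134D (edgeR FDR = 0.000233), or by 1.55 without replicate 3. SPRY4, a feedback inhibitor of the pathway, rose by 2.40 with that library and 1.16 without it, and IER3 by 1.49 and 0.99. In replicate 3, SPRY4 was at 5.20 times, EGR1 at 4.64 times and FOSL1 at 3.48 times the mean of the other 2 libraries of its group. EREG and AREG were highest in the same library. These were the 3 highest ratios of the list, which went down to 0.813 for DUSP4 and 0.787 for CCND1. FOSL1 was low, at 1.99, 1.01 and 5.21 CPM in replicates 1, 2 and 3 of 32-134D. The part of the other differences of replicate 3 in these values was not tested.

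**Figure D5:**
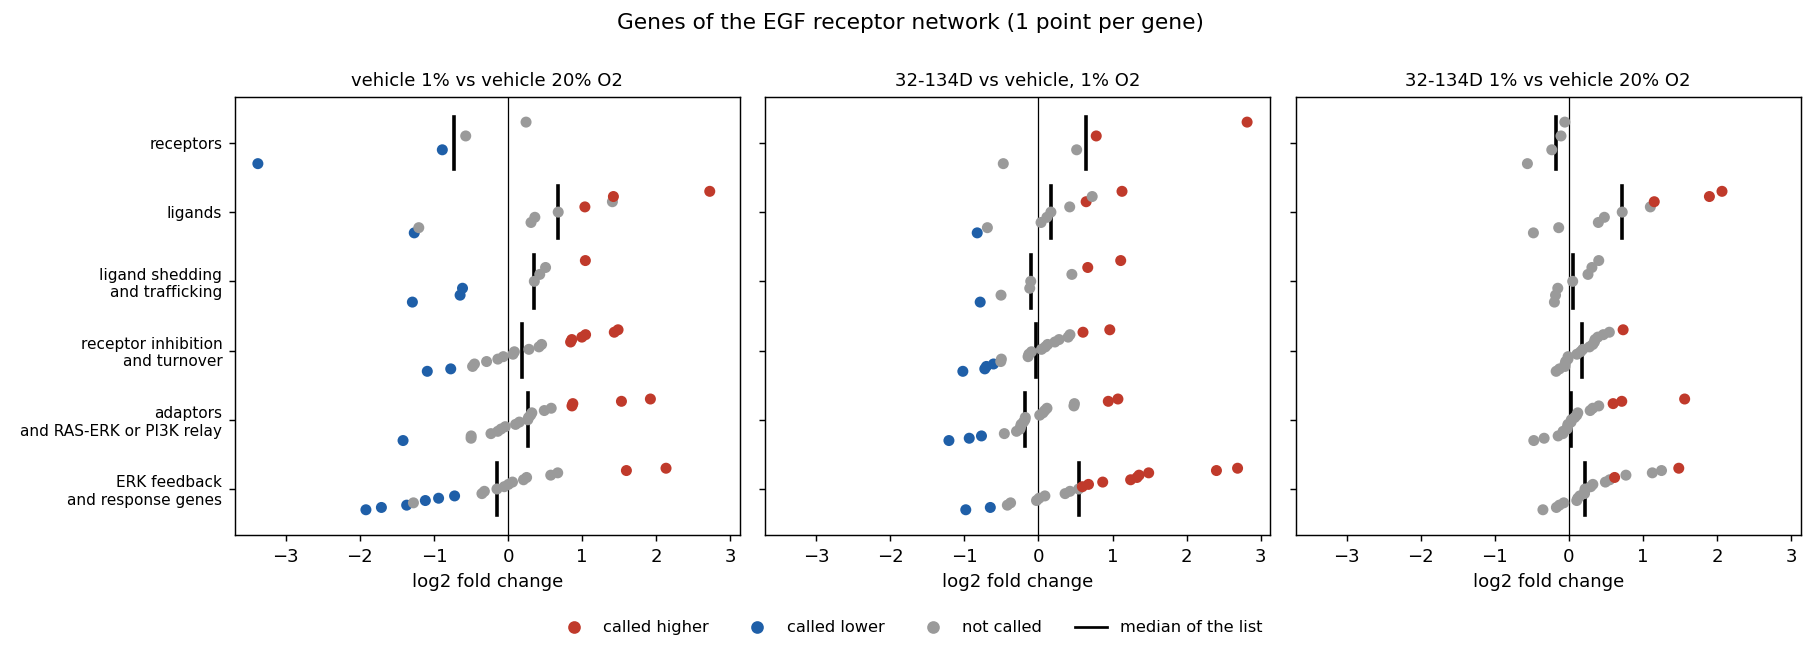
Log2 fold change of each tested gene of the 6 network lists in the 3 comparisons, with calls in colour and the list median as a bar. The receptor median is -0.73 in hypoxia and 0.65 with 32-134D. No gene of any list is called lower between 32-134D and vehicle at 20% O2, where 0.516% of all genes are.

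The genes whose patterns were most like those of the members were sought among 11515 genes with a mean count of at least 100. Likeness was the root-mean-square difference between log2 CPM values centred on each gene's mean over the 9 libraries. For EGFR the closest were SMARCC2 (0.041), SMC1A (0.046) and DIP2B (0.049), for ERBB3 the closest was PBRM1 (0.041) and for ERBB2 it was ACO1 (0.054). For ERRFI1 it was PXDC1 (0.039), and for BTC it was ALG10 (0.12). HBEGF was closest to SERTAD1 (0.15), EREG to WARS1 (0.16) and TGFA to PIK3CD (0.33). The distances were largest for the low-count TGFA and for EREG and HBEGF, whose own patterns spread by 0.57, 0.63 and 1.14 on the same scale.

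All of these values are transcript levels per library, so in bulk RNA fewer cells with a transcript and less transcript per cell cannot be told apart. Protein, ligand release and receptor phosphorylation were not measured in these libraries.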

How the data were processed

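RNA-seq counts were analysed for 3 groups of 3 Hep3B libraries. The authors deposited raw counts of reads per Ensembl gene, without normalization, and the submitters' processing notes name FastQC, MultiQC, STAR, featureCounts, DESeq2 and GRCh38. Tool versions and the strand setting are not given in the sources used here. All 9 columns were matched to samples by their labels. From the counts, genes with a sum of at least 10 were tested with edgeR 4.0.16 in R 4.3.3 (TMM scaling, quasi-likelihood test, 1 fit of 9 libraries, Benjamini-Hochberg FDR below 0.05 and fold change above 1.5). Total counts of 6013980 to 40549699 per library limit the precision of genes with few counts. Intervals cover 95%. Positions and exon lengths are those of GENCODE on GRCh38, while the counts use another Ensembl release of this assembly. Promoters are from RefSeq. Alternatives were DESeq2 1.42.0, other scalings, filters, thresholds and length measures, fits of 2 groups, a replicate block and omission of each library in turn. The procedure was tested on simulated data, where a sizeable part of the smallest changes made, at the fold threshold, was not called, and the share of false calls on FDR alone was above the nominal rate. No library was a duplicate of another, since chi-square divided by its degrees of freedom was 1.64 to 40.5 between replicates.

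The members and the gene lists were chosen with earlier results of these data known. Every receptor and ligand may be named, and from the other lists the 3 genes that rose most and the 3 that fell most among those called in each comparison, the genes most like each member, and FOSL1, FGB, HNF4A, PDGFRB, LUM, CD68, PECAM1, COL1A2, MIEN1, PGAP3 and EGFR-AS1, which were chosen after their values were seen. Shares were compared with the two-sided exact permutation test.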

Additional observations from a re-analysis of the deposited data

How the results depend on the processing

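TGFA had as few as 4 counts per library, and its intervals were the widest of the members. Among the values for single members, 357 kept their direction and their side of the thresholds, 11 passed the thresholds only under an alternative, 8 no longer passed and 5 changed sign. Scaling to total counts moved the median of all genes from 0.00 to -0.21 in hypoxia and from -0.01 to 0.17 with 32-134D on the log2 scale, with 3081 genes called higher and 5848 lower in hypoxia (4412 and 4595 with TMM) and 4755 and 1847 with 32-134D (3675 and 3100 with TMM). The cause of the changes below was not tested.

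EGFR was called in hypoxia with DESeq2 (-0.62), median-ratio scaling (-0.62), total library size (-0.78), a filter of 10 counts per library (-0.68), without replicate 1 of vehicle at 20% O2 (-0.75) and without replicate 1 of 32-134D (-0.63). EGFR was called with 32-134D at total library size (0.70), under the filter of 10 counts per library (0.61) and without replicate 1 of 32-134D (0.59). ERRFI1 was not called with 32-134D at total library size (-0.52) or without replicate 1 of 32-134D (-0.56), nor relative to vehicle at 20% O2 without replicate 3 of 32-134D (0.54). EREG was not called relative to vehicle at 20% O2 in a fit of those 2 groups alone (edgeR FDR = 0.0701), without replicate 3 of 32-134D, or without replicate 1, 2 or 3 of vehicle at 20% O2 (edgeR FDR = 0.0600, 0.0930 and 0.0749). TGFA was called there with no filter (edgeR FDR = 0.0449) and without replicate 2 of 32-134D (1.47, edgeR FDR = 0.0244). The filter of 10 counts per library removed TGFA.

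Signs changed for EREG with 32-134D (-0.49 without replicate 3 of 32-134D), for BTC with 32-134D (-0.0514 without that library and -0.035 without replicate 3 of vehicle at 1% O2) and for EGFR relative to vehicle at 20% O2 (0.0412 without replicate 3 of vehicle at 20% O2 and 0.00098 without replicate 3 of vehicle at 1% O2). Leaving out 1 library at a time gave differences from -0.49 to 0.39 for EREG and from -0.0514 to 0.17 for BTC, and from -0.18 to 0.0412 for EGFR. With longest transcripts in place of the union of exons, the share difference of ERBB3 between 32-134D and vehicle at 20% O2 was 0.380 percentage points and that of AREG in hypoxia was -0.157. Over the fits that left out 1 library, the differences in share ran from -1.83 to 0.968 for ERBB3 and from -2.54 to 0.273 for ERBB2 between 32-134D and vehicle at 20% O2, and from -2.12 to 1.74 for AREG in hypoxia.

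With no fold threshold 47 network genes were called in hypoxia, 52 with 32-134D and 18 relative to vehicle at 20% O2, and 20, 12 and 5 were called when a fold change above 2 was required. With 32-134D, 5 members were called with no fold threshold and 0 with a fold change above 2. Leaving out 1 library gave 1 to 4 members and 5 to 12 network genes called relative to vehicle at 20% O2. The lowest count of members was without replicate 3 of 32-134D, and the network count of 5 was also reached without replicate 1 or 2 of vehicle at 20% O2.

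Same-numbered libraries did not deviate together (correlations from -0.207 to 0.085), so no pairing of the cultures by number was seen. The values were centred on groups of 3 libraries, so a small shared effect could go unseen and pairing is not excluded. With a replicate block, 4 members were called in hypoxia, 3 with 32-134D and 3 relative to vehicle at 20% O2, as without it, and the calls over all genes were 4296 higher and 4375 lower in hypoxia. Replicate 1 of vehicle at 20% O2 correlated at -0.207 with replicate 1 of vehicle at 1% O2, for example, and at 0.157 with replicate 3.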

Other observations

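The summed CPM of the 10 markers of other cell types was 30.1 to 34.2 in vehicle at 20% O2, 14.4 to 15.5 in vehicle at 1% O2 and 31.5 to 34.7 with 32-134D. Most of that sum was PDGFRB, at a mean of 27.2, 10.1 and 22.0 CPM in the same order, while LUM was at 2.43, 3.76 and 8.39 and CD68 at 0.504, 0.680 and 0.607 CPM. PTPRC, CD3E, VWF, CDH5 and DCN, markers of leukocytes, T cells, endothelium and fibroblasts, did not exceed 3 counts in any library. In replicates 1, 2 and 3 of 32-134D, PECAM1, of endothelium, was at 0.794, 0.505 and 1.28 CPM. COL1A2, of fibroblasts, was at 1.28, 0.976 and 0.412 CPM there. Of the 5 tested markers of other cell types, 3 were called lower and 0 higher in hypoxia, beside 20.3% and 19.5% of all genes. With 32-134D relative to vehicle at 1% O2, 4 were called higher and 0 lower, beside 16.2% and 13.7%. The 9 hepatocyte markers summed to 19859 to 20594 CPM in vehicle at 20% O2, 14311 to 17631 in vehicle at 1% O2 and 13110 to 19052 with 32-134D, lowest in replicate 3 of that group. The part of either marker list in the differences of the receptors and ligands was not tested.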
